A study of Bos taurus with 30 samples.

Results

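Laminins are the glycoproteins that build the sheet-like backbone of basement membranes, and each laminin molecule joins an alpha, a beta and a gamma chain. The alpha chain carries the main sites for cell-surface receptors, such as integrins and dystroglycan, while the beta and gamma chains link the molecule to its neighbours and to nidogen. In the uterus a basement membrane lies between the endometrial epithelium and the stroma, and others surround the glands, the blood vessels and smooth muscle cells. The transcripts of 8 laminin chain genes were followed here, which are LAMA2, LAMA3, LAMA4 and LAMA5 (alpha chains), LAMB1, LAMB2 and LAMB3 (beta chains) and LAMC1 (gamma chain). They were picked by gene symbol, and they are 8 of the 27607 genes in the count tables.

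RNA was sequenced from primary bovine endometrial cells grown in a microfluidic device, with epithelial-enriched cells in the upper chamber and stromal-enriched cells in the lower chamber, on either side of a porous membrane. The uteri were from cows that were not pregnant and early in the luteal phase, and the cells were kept under flow for 72 hours. In the glucose experiment the medium held 5 mM of glucose, the control, or 50 mM of glucose. In the insulin experiment the medium held 5 mM of glucose throughout, with insulin at 1 or 10 ng/mL or with vehicle (acetic acid in buffered saline). Each of the 10 combinations of cell type and treatment had 3 libraries, numbered 1 to 3, which gave 12 glucose and 18 insulin libraries. Nothing in the labels says whether a replicate number stands for a separate cow, so P values measure only the spread between these libraries. The enriched cells are no pure types, and the tables hold total RNA of each chamber, so that a share of other cells enters every level.

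Libraries of the glucose experiment held 13493503 to 16647701 counted reads and those of the insulin experiment 8826470 to 13214728, so that a gene without any read could still have stood at 0.34 CPM in the library with the fewest reads, counting error alone being considered. Levels are given in CPM, the counts of a gene scaled to the total of the library. They are not divided by gene length, so they compare libraries for 1 gene and not different genes with each other. The sum over 30 epithelial markers was 10580 to 18650 CPM in the epithelial libraries and 43.7 to 7264 CPM in the stromal libraries. The sum over 30 stromal markers, which 31 gene identifiers carry, was 27250 to 95750 CPM in the stromal and 1718 to 8490 CPM in the epithelial libraries, so every library held more of its own marker set than any library of the other cell type. A pair of libraries stood apart. The stromal library of replicate 3 at 50 mM of glucose had the 7264 CPM of epithelial markers and the 27250 CPM of stromal markers, and the epithelial library of replicate 2 at 5 mM had the 18650 CPM. Markers of other cells were lower, with 6.28 to 149 CPM for 11 endothelial, 4.23 to 20.7 CPM for 7 immune and 123 to 10110 CPM for 12 muscle and pericyte genes, the last being higher in stromal libraries. In the stromal cells CLDN3, OVOL1, CRB3 and TJP3 were at 0 in the 3 libraries at 1 ng/mL of insulin, and so were the endothelial gene TIE1 in the 9 insulin libraries and CLDN5 in those at 5 mM of glucose and at vehicle.

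The first question is how the chains were divided between epithelium and stroma. LAMA3, LAMA5 and LAMB3 were higher in epithelial cells, and LAMA2, LAMA4, LAMB1, LAMB2 and LAMC1 were higher in stromal cells. In the insulin vehicle group all 8 genes passed the test, against 55.2% of all genes tested, so that passing was common in that comparison. LAMB3 had a mean of 1606 CPM in epithelial and 24.5 CPM in stromal cells, and LAMB1 a mean of 397 CPM in epithelial and 3287 CPM in stromal cells. LAMB2 and LAMC1 differed least, with a stromal mean 1.23 and 1.39 times the epithelial mean.

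**Figure D1:**
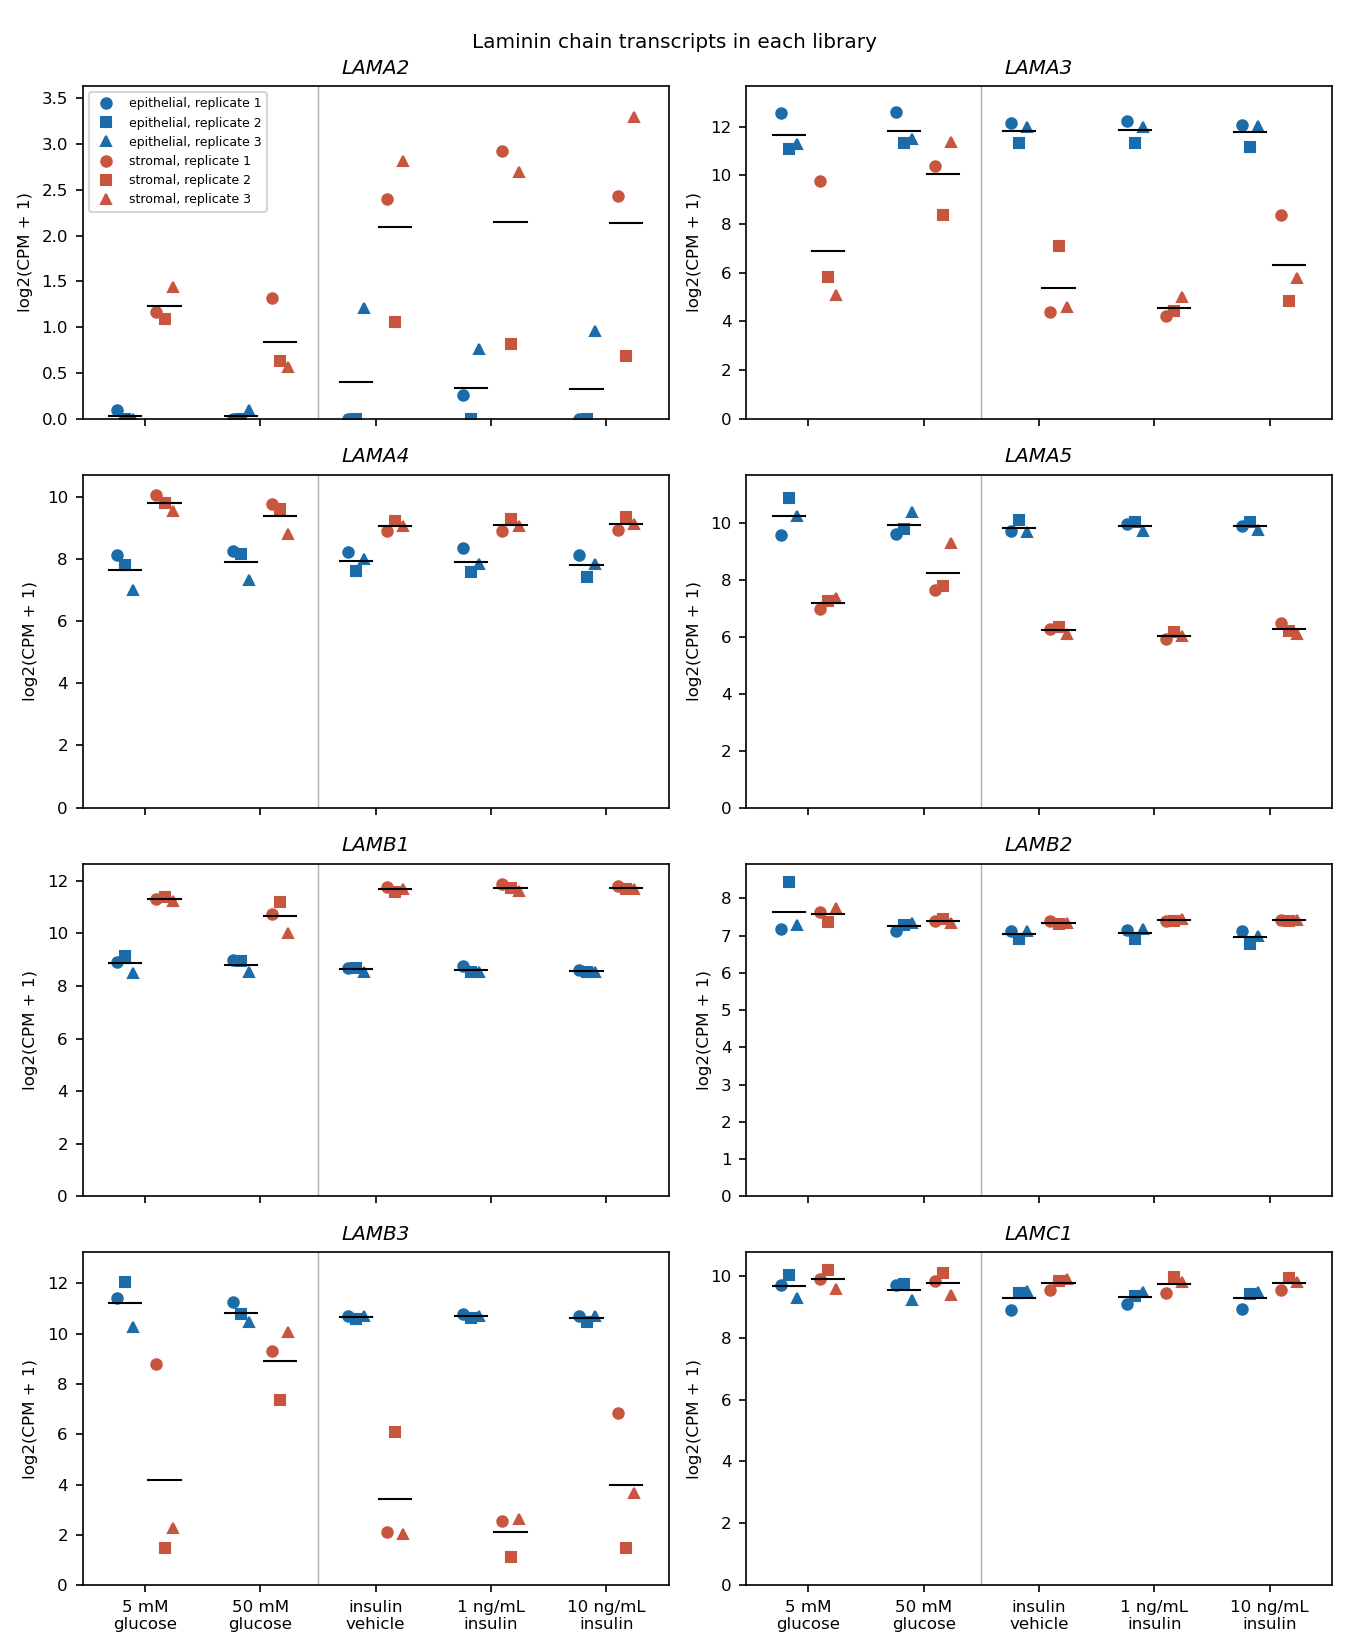
Level of each laminin chain gene in every library, as log2(CPM + 1), with epithelial libraries in blue, stromal libraries in red, a marker shape for each replicate number and a black line at the mean of the 3 values. Glucose groups stand left and insulin groups right of the grey line. The epithelial points of LAMA3, LAMA5 and LAMB3 lie high and close together while the stromal points of LAMA3 and LAMB3 are spread widely, and LAMB1 shows the opposite order with the stromal points on top.

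Among the alpha chains, LAMA3 (ENSBTAG00000027181) is the chain of the epithelial laminin that holds cells to the basement membrane through hemidesmosomes. Epithelial cells had 6033, 2207 and 2481 CPM in replicates 1, 2 and 3 at 5 mM of glucose and 6240, 2605 and 2871 CPM at 50 mM. Stromal cells had 864, 56.1 and 32.6 CPM at 5 mM and 1347, 333 and 2652 CPM at 50 mM. All epithelial values were above the stromal values at 5 mM, whereas at 50 mM the stromal library of replicate 3 exceeded the epithelial library of replicate 2. In the insulin experiment the 9 epithelial libraries ran from 2323 to 4889 CPM, with 4583, 2585 and 4064 CPM at vehicle. Stromal cells had 20.1, 137 and 23.1 CPM at vehicle, 17.8, 20.8 and 30.8 CPM at 1 ng/mL and 328, 28.0 and 54.2 CPM at 10 ng/mL. Most stromal libraries were thus low, and a few single ones, of varying replicate number, stood well above the rest. From the highest to the lowest group mean, the order was epithelial 50 mM, 1 ng/mL, vehicle, 10 ng/mL and 5 mM, then stromal 50 mM, 5 mM, 10 ng/mL, vehicle and 1 ng/mL, and each neighbouring pair overlapped. The log2 fold change of epithelial over stromal cells was 6.52 at vehicle (standard error 0.996, adjusted P = 0.00591 from the quasi-likelihood test of edgeR, Benjamini-Hochberg adjusted over all genes).

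LAMA5 (ENSBTAG00000003061) encodes the most widespread alpha chain of adult epithelial basement membranes. In epithelial cells it was at 760, 1894 and 1222 CPM at 5 mM of glucose and at 775, 873 and 1338 CPM at 50 mM. Its stromal values were 124, 151 and 163 CPM at 5 mM and 198, 219 and 623 CPM at 50 mM. No stromal value reached the lowest epithelial one. With insulin, the 9 epithelial libraries held 820 to 1093 CPM and the 9 stromal libraries 60.3 to 87.5 CPM, so that here the stromal spread was far narrower than that of LAMA3. Group means ran from 1292 CPM in epithelial cells at 5 mM down to 64.9 CPM in stromal cells at 1 ng/mL. In that order the 5 epithelial groups overlapped with their neighbours, as did the 3 stromal insulin groups, while the stromal 50 mM group, the stromal 5 mM group and the stromal insulin groups were separate steps. The log2 fold change at vehicle was 3.53 (standard error 0.133, adjusted P = 0.000899), the smallest error of the 8 genes after that of LAMB2 and LAMC1.

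LAMA4 (ENSBTAG00000008817), an alpha chain of mesenchymal and vascular basement membranes, was at 278, 221 and 126 CPM in epithelial and 1058, 890 and 746 CPM in stromal cells at 5 mM of glucose. At 50 mM the values were 305, 287 and 159 CPM and 872, 785 and 448 CPM. Over the insulin libraries the epithelial range was 172 to 327 CPM and the stromal range 479 to 654 CPM. Every stromal library was above every epithelial library, in both experiments. All neighbours in the order of group means overlapped apart from the step between the stromal vehicle group and the epithelial 50 mM group. The 11 endothelial genes summed to 11.3 to 19.6 CPM in stromal cells at 5 mM of glucose and 6.28 to 13.9 CPM at vehicle. In epithelial cells their sum was higher, at 60.7 to 149 CPM and 55.8 to 136 CPM. Of this list, PECAM1 and CDH5 had means of 0.531 and 0.5 CPM in stromal cells at 5 mM of glucose and 0.119 and 0.655 CPM in stromal cells at vehicle. The part of other cells in the level of LAMA4 was not tested. The log2 fold change of LAMA4 at vehicle was -1.21 (standard error 0.242, adjusted P = 0.0131).

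LAMA2 (ENSBTAG00000010229), the alpha chain of muscle and nerve basement membranes, had the fewest reads. The epithelial libraries of the glucose experiment held 1 read in replicate 1 at 5 mM, 1 read in replicate 3 at 50 mM and 0 in the others. In stromal cells there were 19, 18 and 28 reads at 5 mM and 24, 8 and 7 reads at 50 mM, or 0.483 to 1.71 CPM. Summed over 3 libraries, the stromal level was 58.8 times the epithelial level at 5 mM, with an exact 95% counting interval of 10.2 to 2360, and 40.8 times at 50 mM, with 6.91 to 1650. In the insulin experiment the epithelial reads were nearly all in replicate 3, with 14 at vehicle, 7 at 1 ng/mL and 9 at 10 ng/mL, beside 2 in replicate 1 at 1 ng/mL and 0 in the other 5 libraries. The stromal libraries held 49, 12 and 56 reads at vehicle, 71, 9 and 68 at 1 ng/mL and 58, 7 and 92 at 10 ng/mL, so that replicate 2 was the lowest stromal library in each group. Epithelial replicate 3 also had the highest median level of the stromal markers in the insulin experiment, at 11.7% to 12.4% of the stromal level, against 1.79% to 6.03% in the other epithelial libraries, and the part of this in the result was not tested. The ratios of summed reads were 8.72 (5.0 to 16.4), 14.8 (7.59 to 33.0) and 13.6 (6.99 to 30.3) at vehicle, 1 ng/mL and 10 ng/mL. All these intervals hold the counting error of the summed reads only and leave out the spread between libraries, so they are too narrow for a ratio of cell types. Neighbours in the order of the 10 group means all overlapped. LAMA2 passed the filter on low counts in the cell type comparisons at 5 mM and at vehicle only, and it was called in both, with log2 fold changes of -5.67 and -3.58 that depend on the prior count of the fit.

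The beta chain LAMB1 (ENSBTAG00000011412) is shared by most laminins outside stratified epithelia. Epithelial cells had 486, 571 and 357 CPM at 5 mM of glucose and 508, 491 and 366 CPM at 50 mM. Stromal cells had 2524, 2665 and 2381 CPM at 5 mM and 1704, 2349 and 1032 CPM at 50 mM. At vehicle there were 413, 406 and 373 CPM in epithelial and 3498, 3086 and 3276 CPM in stromal cells, and over all insulin libraries the ranges were 368 to 432 CPM and 3086 to 3786 CPM. The cell types did not overlap in any of the 5 conditions. Of the neighbours in the order of group means, stromal vehicle and stromal 5 mM, stromal 5 mM and stromal 50 mM, and stromal 50 mM and epithelial 5 mM were separate, and the others overlapped. Its log2 fold change at vehicle was -3.13 (standard error 0.156, adjusted P = 0.000899).

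LAMB3 (ENSBTAG00000016542) is the partner of LAMA3 in the hemidesmosomal laminin. Epithelial cells had 2726, 4285 and 1217 CPM at 5 mM of glucose and 2458, 1745 and 1409 CPM at 50 mM, and stromal cells 438, 1.76 and 3.84 CPM at 5 mM and 642, 163 and 1067 CPM at 50 mM. At 5 mM of glucose a single stromal library, that of replicate 1, thus held nearly all of the stromal reads of LAMB3. At vehicle there were 1650, 1517 and 1650 CPM in epithelial and 3.32, 67.2 and 3.03 CPM in stromal cells. Stromal cells at 1 ng/mL had 4.91, 1.19 and 5.17 CPM and at 10 ng/mL 114, 1.75 and 11.6 CPM, while the 9 epithelial insulin libraries stayed between 1430 and 1742 CPM. No stromal library overlapped with an epithelial one of its condition, and in the order of group means the step from epithelial 10 ng/mL to stromal 50 mM was the only one without overlap. The log2 fold change at vehicle was 7.51 (standard error 1.33, adjusted P = 0.00905).

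LAMB2 (ENSBTAG00000022635), the beta chain of neuromuscular, kidney and vascular basement membranes, and LAMC1 (ENSBTAG00000011966), the gamma chain of most laminins, were at similar levels in both cell types. In the insulin experiment LAMB2 had an epithelial range of 108 to 144 CPM and a stromal range of 157 to 174 CPM, with 138, 118 and 139 CPM against 168, 157 and 160 CPM at vehicle. In the glucose experiment it was at 144, 343 and 154 CPM in epithelial and 199, 164 and 212 CPM in stromal cells at 5 mM, and at 139, 154 and 161 CPM and 168, 172 and 162 CPM at 50 mM. The 343 CPM belong to the epithelial library of replicate 2 that stood apart. LAMC1 was at 476, 695 and 725 CPM in epithelial and 755, 924 and 959 CPM in stromal cells at vehicle, and at 843, 1048 and 625 CPM and 962, 1170 and 769 CPM at 5 mM. For LAMC1 the stromal library was the higher in 3 of 3 pairs in each of the 5 conditions, although the groups overlapped in 3 of them. The neighbours in the order of group means overlapped for both genes throughout. The log2 fold changes at vehicle were -0.38 for LAMB2 (standard error 0.107, adjusted P = 0.0356) and -0.57 for LAMC1 (standard error 0.118, adjusted P = 0.0142).

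Over the 5 conditions the fitted direction of each gene was the same, although the mean of LAMB2 at 5 mM of glucose was 214 CPM in epithelial and 192 CPM in stromal cells, opposite to its fitted value and to its means in the other 4 conditions. Without replicate 1 or replicate 3, its fitted value there was 0.11. The groups of the cell types did not overlap for 6 of 8 genes at 5 mM and 6 of 8 at 50 mM of glucose, against 44.5% and 35.2% of all genes, and for 7 of 8 at vehicle, 1 ng/mL and 10 ng/mL, against 65.5%, 67.6% and 65.9%. At 1 ng/mL and 10 ng/mL of insulin, 7 of 7 laminin genes tested were called, against 58.9% and 54.4% of all genes, and at 5 mM of glucose 5 of 8, against 21.1%. At 50 mM of glucose it was 3 of 7, against 17.3%, namely LAMA4, LAMA5 and LAMB1. Without replicate 1 none of the 7 was called at 50 mM, where 0 of all genes were called either. Replicate 3 held the stromal library that stood apart. Without replicate 3, LAMA3 (2.40, adjusted P = 0.0103) and LAMB3 (2.49, adjusted P = 0.0214) were called too. That made 5 of 7, against 3897 of 14010 over all genes. LAMA4 had log2 fold changes from -2.38 to -1.21 over the 5 conditions, LAMA5 from 1.54 to 3.78 and LAMB1 from -3.27 to -1.99, and these 3 genes were called in each. LAMA3 was called in 4 conditions, with 4.64 at 5 mM (adjusted P = 0.0146) and 1.64 at 50 mM (adjusted P = 0.11). LAMB3 was called in the 3 insulin groups, while 7.63 at 5 mM (95% interval 2.28 to 13.0, adjusted P = 0.0579) and 1.76 at 50 mM (0.24 to 3.27, adjusted P = 0.0999) were not called. LAMB2 and LAMC1 were called in the 3 insulin groups as well, at -0.56 to -0.38 and -0.60 to -0.55, and were not called with glucose, at -0.18 and -0.30 for LAMB2 and -0.43 and -0.36 for LAMC1. LAMB2 at 5 mM turned to 0.11 when replicate 1 or replicate 3 was left out. LAMB3 at 5 mM was called by DESeq2, without replicate 1 (9.54) and without replicate 3 (6.67). Over all genes, 4065 of 20298, 3219 of 14165 and 2262 of 13963 were called in these fits. LAMA3 at 5 mM was not called without replicate 2 (4.27, adjusted P = 0.0598). Of the 8 genes at vehicle, 4 were called without replicate 1, 7 without replicate 2 and 5 without replicate 3. Over all genes, 5195 of 13451, 5788 of 13569 and 5762 of 13510 were called in these fits. At 10 ng/mL 3 of 7 were called without replicate 3, against 4974 of 13428 over all genes. Without the replicate number as a block, the call on LAMA3 at 5 mM was lost (3.24, adjusted P = 0.108). At 50 mM only 1 laminin gene was called without the block, against 1088 of 13892 over all genes. The median over the tested laminin genes lay between -0.56 and -0.30, and over all genes tested between -0.01 and 0.03.

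**Figure D2:**
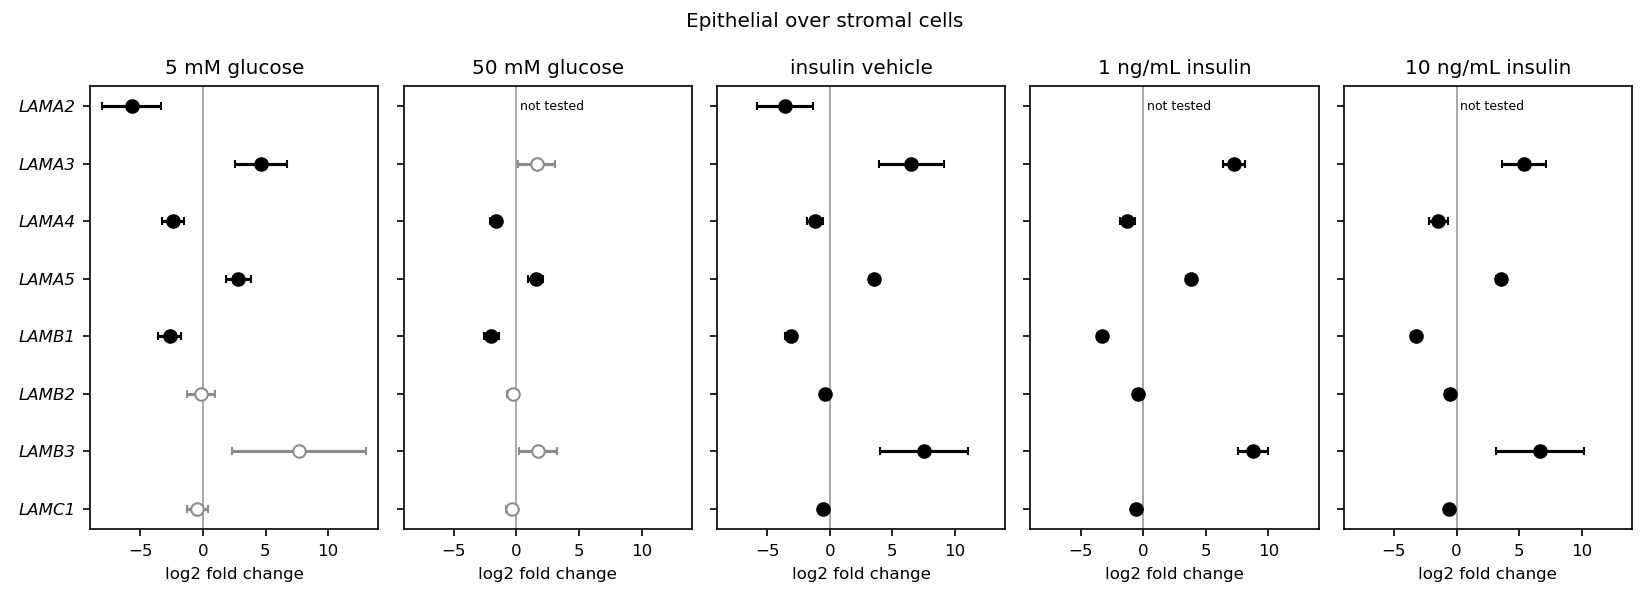
Log2 fold change of epithelial over stromal cells for each laminin chain gene in the 5 conditions, with 95% intervals from edgeR's quasi-likelihood test. Filled black points were called and open grey points were not, and LAMA2 was not tested in 3 conditions. LAMA3, LAMA5 and LAMB3 lie right of 0 and the other genes left of it in each panel, and the intervals of LAMA3 and LAMB3 are the widest in most panels.

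LAMA3 and LAMB3, which had wide intervals, varied widely between the stromal libraries, where epithelial markers varied as well. At 5 mM of glucose LAMB3 also varied between the epithelial libraries, at 2726, 4285 and 1217 CPM. The part of each cell type in the intervals was not tested. In bulk RNA, a larger share of epithelial cells and more RNA per stromal cell cannot be told apart. Relative to the mean epithelial level, the median of the 30 epithelial markers stood at 7.03%, 0.0195% and 0.102% in stromal replicates 1, 2 and 3 at 5 mM of glucose, and at 13.8%, 5.21% and 60.2% at 50 mM. LAMB3 stood at 16.0%, 0.0642% and 0.14% of its epithelial level at 5 mM and at 23.4%, 5.95% and 38.9% at 50 mM. LAMA3 stood at 24.2%, 1.57% and 0.912% and at 37.7%, 9.33% and 74.2%. In both glucose groups the library highest in the markers was also the highest in both genes. The same held with insulin, where the marker median was 3.7% in replicate 2 at vehicle and 3.72% in replicate 1 at 10 ng/mL and at most 0.405% in the other 7 libraries. In those 2 libraries LAMB3 was at 4.18% and 7.09% and LAMA3 at 3.66% and 8.75%, and elsewhere LAMB3 was at most 0.724% and LAMA3 at most 1.45%. EPCAM, an epithelial adhesion protein, had 22.2 and 17.7 CPM there and at most 1.54 CPM in the other stromal insulin libraries.

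LAMA5 varied less in the insulin experiment, where it was at 6.56% to 9.52% of the epithelial level in all 9 stromal libraries. At vehicle and at 10 ng/mL its highest values, 8.76% and 9.52%, were in the same libraries as the highest marker medians. At 1 ng/mL its highest value, 7.71%, was in replicate 2, which had the lowest marker median, 0.015%. Where the marker median was 0.00444% (replicate 2 at 10 ng/mL), LAMA5 was at 7.92%, LAMA3 at 0.747% and LAMB3 at 0.109%. At 5 mM of glucose LAMA5 was at 9.56%, 11.7% and 12.6%, with the lowest value in the library with the most epithelial markers, and at 50 mM it was at 15.3%, 17.0% and 48.2%, with the highest value in the library with the most. In the opposite direction, LAMB1 in the epithelial libraries was at 11.2% to 22.6% of the stromal level and LAMA4 at 14.1% to 60.9%, with a median of 1.79% to 12.4% for the stromal markers in the same libraries. Epithelial replicate 2 of the insulin groups had the lowest stromal marker medians, 1.79% to 2.26%. LAMB1 was at 11.2% to 12.3% and LAMA4 at 32.0% to 36.1% there. The part of stromal cells in these levels was not tested.

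**Figure D3:**
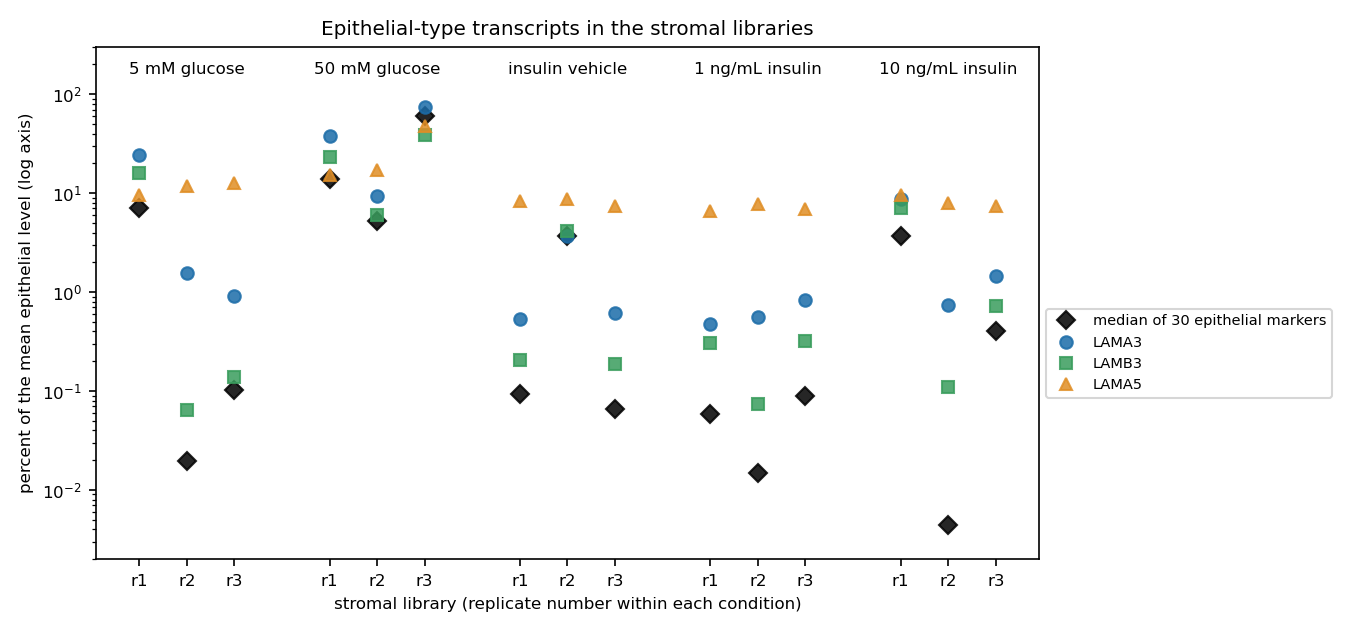
Level of LAMA3, LAMB3 and LAMA5 and the median of 30 epithelial markers in each of the 15 stromal libraries, as a percent of the mean epithelial level of the control group (5 mM of glucose or insulin vehicle), on a log axis. LAMA3 and LAMB3 are highest in each glucose group, and at vehicle and 10 ng/mL, in the library with the highest black marker diamond, while LAMA5 stays between 6.56% and 9.52% in the insulin libraries and is at 48.2% in the stromal library of replicate 3 at 50 mM.

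The next question is whether glucose changed the chains. In epithelial cells none of the 7 genes tested was called between 50 and 5 mM, as was none of all genes (0%), and the log2 fold changes ran from -0.40 (LAMB3) to 0.28 (LAMA4). Without replicate 2, whose 5 mM library stood apart, all 5 genes with negative values turned positive, among them LAMB3 (0.07), LAMA5 (0.12), LAMB1 (0.08) and LAMB2 (0.04), and none was called. At an unadjusted P under 0.05 from edgeR, 0 laminin genes and 1.55% of all genes passed, and DESeq2 called 0 laminin genes. In this epithelial comparison the median over the 29 stromal markers tested was 0.69, 0 being called, and its part in the values was not tested. In stromal cells 0 of the 8 genes and 0 of all genes were called. LAMA5 passed without adjustment, with a log2 fold change of 0.98 (95% interval 0.14 to 1.82, unadjusted P = 0.0314 and adjusted P = 0.696 from edgeR), as did 4.87% of all genes. The change of LAMA5 was positive in 3 of 3 pairs and was 0.58 without replicate 3. LAMA5 and LAMB1 were the genes whose stromal groups did not overlap, LAMA5 being higher and LAMB1 lower at 50 mM, which was also the case for 6.16% of all genes tested. The stromal library of replicate 3 at 50 mM held the extreme value of both, with 623 CPM of LAMA5 and 1032 CPM of LAMB1. In the same comparison the median log2 fold change was 4.42 over the 29 epithelial markers tested and -0.51 over the stromal markers, 0 of either being called, and their part in the values of LAMA5 and LAMB1 was not tested.

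LAMA3 and LAMB3 had a higher level at 50 mM in 3 of 3 stromal pairs, with means of 1444 against 318 CPM and 624 against 148 CPM. The fitted log2 fold changes were 2.93 (95% interval -0.62 to 6.48) and 5.45 (-0.42 to 11.3), with adjusted P = 0.696 for both. The median of the epithelial markers was also higher at 50 mM in these 3 pairs, and its part in the result was not tested. LAMB3 was called by DESeq2 (5.63, adjusted P = 0.026) and without replicate 1 (7.26, adjusted P = 0.0495). DESeq2 called 199 of 20051 genes, 196 of them as higher at 50 mM. The fit without replicate 1 called 50 of 13757 genes, all as higher. LAMB3 was not called without replicate 3, where LAMB3 was at 2.87 and LAMA3 at 1.56. The other 5 stromal genes had values from -0.85 (LAMA2) to -0.19 (LAMC1). When the glucose effects of the cell types were set against each other in 1 model, 0 of 8 genes and 0 of all genes (0%) differed after adjustment. Without adjustment 3 of 8 passed, against 7.53% of all genes, with epithelial minus stromal differences of 0.74 for LAMA4 (unadjusted P = 0.0407 from edgeR), -1.29 for LAMA5 (0.0352) and -5.92 for LAMB3 (0.0198), and adjusted P values from 0.64 to 0.654. The difference for LAMB3 was called by DESeq2 and without replicate 1, fits that called 243 of 21150 and 307 of 14728 genes.

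In epithelial cells exposed to insulin, the values moved little. Between 1 ng/mL and vehicle the 7 genes had log2 fold changes of -0.03 to 0.07, with no call among them and none among all genes (0%). Of the laminin genes 0 had an unadjusted P under 0.05, DESeq2 called 0 of them, and 2.95% of all genes passed without adjustment in edgeR. Between 10 ng/mL and vehicle they ran from -0.15 to 0.04 with 0 laminin genes called, against 0.124% of all genes. LAMA4 was lower in 3 of 3 pairs, at 279, 172 and 226 CPM against 300, 194 and 253 CPM, a log2 fold change of -0.15 (95% interval -0.24 to -0.07, unadjusted P = 0.000658 and adjusted P = 0.193 from edgeR). LAMB2 had -0.10 (unadjusted P = 0.0408 from edgeR, adjusted P = 0.694), and 6.96% of all genes passed without adjustment. Between 10 and 1 ng/mL, LAMA3 (-0.10), LAMA4 (-0.13) and LAMB2 (-0.12) had unadjusted P values of 0.0172, 0.0152 and 0.0246 from edgeR, with adjusted P = 0.983 for each. Of all genes 0% were called and 4.44% passed without adjustment. Over the 3 epithelial insulin comparisons the 95% intervals of the 7 genes lay between -0.24 and 0.16 on the log2 scale.

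In stromal cells insulin gave larger but uneven values for LAMA3 and LAMB3. Between 1 ng/mL and vehicle 0 of 8 genes were called, against 0.0157% of all genes. The log2 fold changes were -1.0 for LAMA3 (unadjusted P = 0.0313 from edgeR, adjusted P = 0.917), -2.01 for LAMB3 (0.0275, adjusted P = 0.917) and -0.18 for LAMA5 (0.0122, adjusted P = 0.895), and 5.16% of all genes passed without adjustment. Without replicate 2, whose vehicle library had the high epithelial markers, LAMA3 was at 0.18 and LAMB3 at 0.70. Without replicate 3 both were called, at -1.70 and -3.17, in a fit that called 103 of 12816 genes. LAMA5 was lower in 3 of 3 pairs, at 60.3, 70.8 and 63.5 CPM against 77.0, 80.5 and 67.5 CPM, and had -0.23 to -0.12 with 1 replicate left out. Between 10 ng/mL and vehicle the 8 genes ran from 0.01 (LAMC1) to 0.98 (LAMA3), with 0 called here and 0% over all genes. LAMA3 was at -0.69 and LAMB3 at -1.84 without replicate 1, neither being called. Without replicate 2 they were at 2.84 and 4.23 and were called, in a fit that called 79 of 12901 genes. Both thus changed sign with the replicate left out. LAMB2 was the gene whose groups did not overlap, at 170, 168 and 169 CPM against 168, 157 and 160 CPM, as was the case for 2.86% of all genes. DESeq2 called 0 laminin genes in both comparisons. At an unadjusted P under 0.05 from edgeR, 0 laminin genes and 2.79% of all genes passed between 10 ng/mL and vehicle.

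Between 10 and 1 ng/mL, LAMB3 was higher in 3 of 3 stromal pairs, with a log2 fold change of 2.98 (95% interval 1.86 to 4.08, unadjusted P = 0.000108 and adjusted P = 0.172 from edgeR). LAMA3 gave 1.89 (0.74 to 3.05, unadjusted P = 0.00412 from edgeR, adjusted P = 0.8) and LAMA5 0.21 (0.03 to 0.38, unadjusted P = 0.0237 from edgeR, adjusted P = 1.0), both in 3 of 3 pairs. None of the 8 genes was called, against 0.0313% of all genes, and 3 of 8 passed without adjustment, against 3.91%. The values fell to 1.06 for LAMB3 and 0.66 for LAMA3 without replicate 1, whose library at 10 ng/mL held 3.72% of the epithelial marker level, and both genes were called in that fit. LAMA5 was at 0.08 without replicate 1. LAMA3 and LAMB3 were also called without replicate 3, at 2.51 for LAMA3 and 3.99 for LAMB3, and LAMB3 was called without replicate 2, at 3.16. Over all genes, 66 of 12818 were called without replicate 1, 24 of 12967 without replicate 2 and 74 of 12806 without replicate 3. In this comparison 7 of the 30 epithelial markers were tested, with a median of 1.82, and 1 was called. It was the keratin KRT19 (3.62, standard error 0.47, adjusted P = 0.0478), and the other 6 were not called.

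When the insulin effects of the cell types were compared in 1 model, 0 of 8 laminin genes were called at 1 ng/mL, against 0.658% of all genes, and 0 of 8 at 10 ng/mL, against 0%. At 1 ng/mL, LAMA3 (1.02), LAMA5 (0.26) and LAMB3 (2.32) had unadjusted P values of 0.0454, 0.0116 and 0.0074 from edgeR and adjusted P values of 0.716, 0.452 and 0.364, and 6.78% of all genes passed without adjustment. Of the 30 epithelial markers, 20 were called in this comparison, all with a positive difference. Without replicate 2 LAMA3 was at -0.15 and LAMB3 at -0.67. Without replicate 3 LAMB3 was called at 3.32, in a fit that called 158 of 14026 genes. At 10 ng/mL, LAMA3 had -1.15 (unadjusted P = 0.394 from edgeR) and LAMB3 -1.26 (0.566). Without replicate 2 they were called, at -2.90 and -4.29, in a fit that called 170 of 14032 genes. Without replicate 1 they turned to 0.58 and 2.00 and were not called. LAMA4 (-0.24), LAMB1 (-0.14) and LAMB2 (-0.18) had unadjusted P values of 0.0211, 0.0434 and 0.0229 from edgeR, with an adjusted P of 1.0 for each. In this comparison 4.05% of all genes passed without adjustment.

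**Figure D4:**
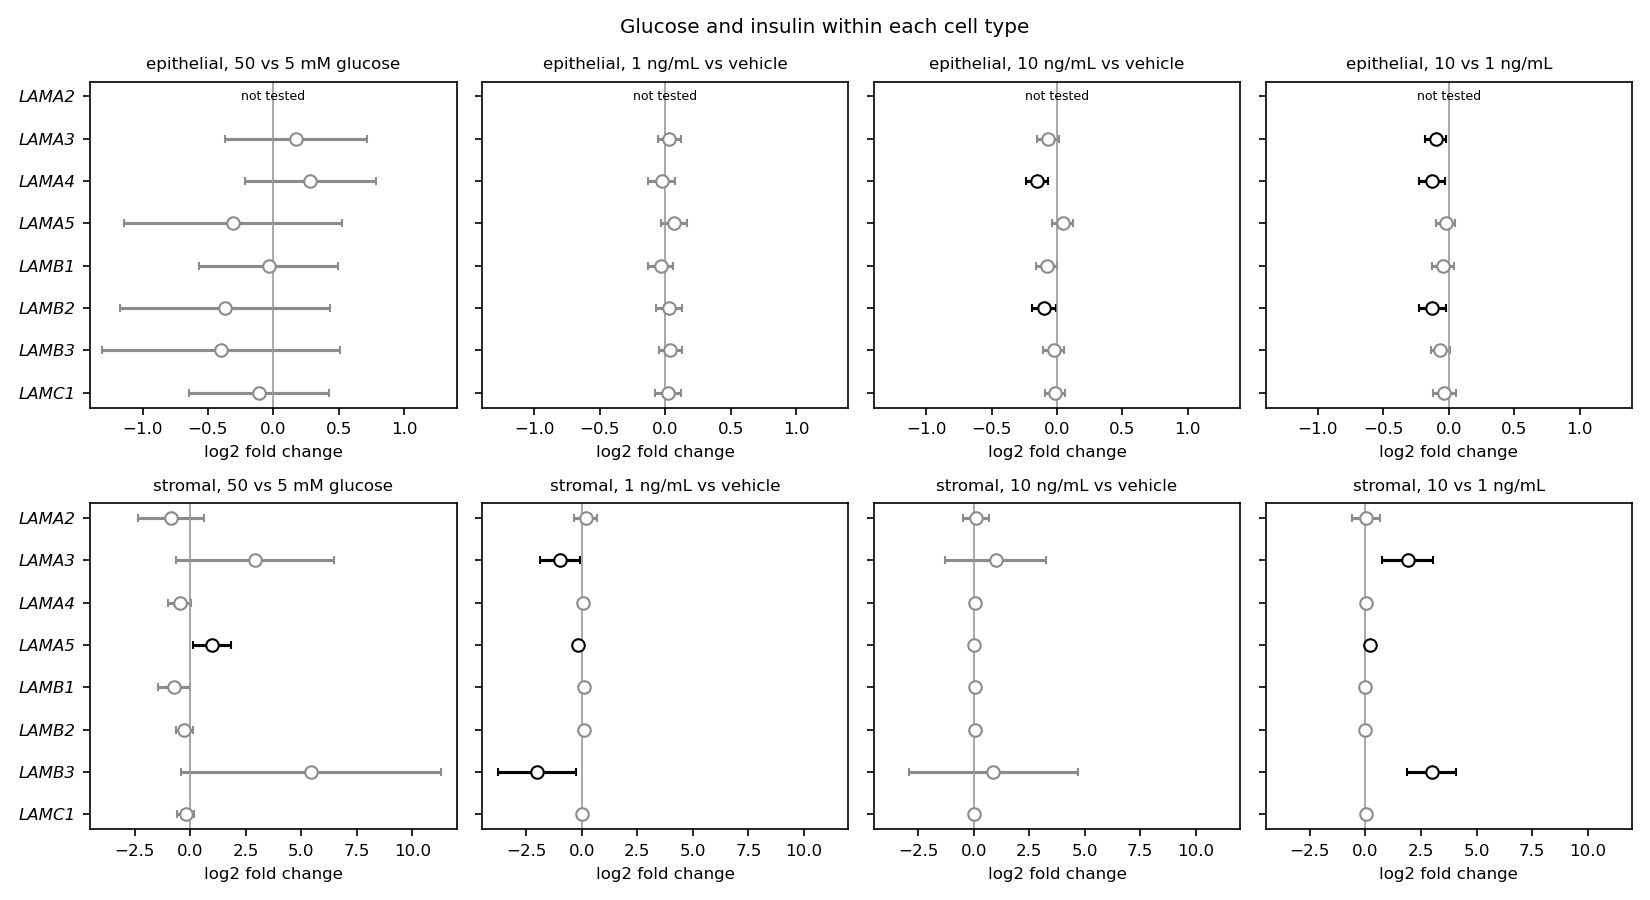
Log2 fold change of each laminin chain gene between glucose or insulin concentrations within epithelial (top) and stromal cells (bottom), with 95% intervals from edgeR's quasi-likelihood test and a wider axis in the bottom row. Black points had an unadjusted P under 0.05 and none was called after adjustment. The epithelial insulin values lie between -0.15 and 0.07, and in stromal cells LAMA3 and LAMB3 have the widest intervals.

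The partners of these chains were divided between the cell types too. LAMA1 (-4.29) and LAMC3 (-2.81) were called as higher in stromal cells, at group means of 3.12 and 7.40 CPM there and 0.158 and 1.23 CPM in epithelial cells. Among the 12 laminin receptor genes, 9 were called as higher in epithelial cells at vehicle, 2 as lower and 1 was not called, against 27.8% of all genes higher and 27.3% lower. ITGB4, the hemidesmosomal integrin beta chain, had a log2 fold change of 7.29 (adjusted P = 0.00733), the collagen and laminin integrin chain ITGA2 had 6.0 (adjusted P = 0.00412) and the laminin integrin chain ITGA7 had 5.01 (adjusted P = 0.0012). ITGA6, the alpha partner of ITGB4, had 4.99 (adjusted P = 0.00213), BCAM, a receptor for the LAMA5 chain, had 3.68 (adjusted P = 0.000914) and the dystroglycan gene DAG1 had 1.10 (adjusted P = 0.00628). ITGA1 (-3.69), a collagen and laminin integrin chain, and ITGB1 (-0.98), the common integrin beta chain, were higher in stromal cells. The median over the 12 genes was 2.46, and over all genes 0.003. At 5 mM of glucose 6 receptor genes were called as higher in epithelial cells and 2 as lower, against 10.5% and 10.6% of all genes, and at 50 mM 1 and 2, against 6.39% and 10.9%.

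The list of 6 hemidesmosome genes shares ITGA6, ITGB4 and CD151 with the receptors. At vehicle 4 of the 6 were called as higher in epithelial cells and 0 as lower, against 27.8% and 27.3% of all genes. The median of the 6 was 2.53. COL17A1, the transmembrane collagen of hemidesmosomes, had 4.60 (adjusted P = 0.00493), and CD151 (-0.38, adjusted P = 0.0658) and PLEC (-0.01) were not called. Without replicate 1 the count was 2 of 6, against 5195 of 13451 over all genes. Of 20 other basement membrane genes tested, 4 were called as higher in epithelial and 13 as higher in stromal cells. The shares over all genes were again 27.8% and 27.3%, and the median of the 20 was -2.84. The calcium-binding matrix proteins SMOC1 (-6.60, adjusted P = 0.00181) and SMOC2 (-5.94, adjusted P = 0.0012) and the nidogen NID2 (-5.21, adjusted P = 0.00275) had the largest differences, and NID1, the nidogen that ties laminin to collagen IV, had -5.05 (adjusted P = 0.00197). The 4 genes higher in epithelial cells were COL4A3 (4.75), AGRN (4.47), COL4A4 (3.58) and COL18A1 (1.28), whereas the collagen IV chains COL4A1 (-4.02), COL4A2 (-3.63) and COL4A5 (-3.99) were higher in stromal cells. These names beyond SMOC1, SMOC2, NID2 and NID1 were chosen after their values were seen.

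**Figure D5:**
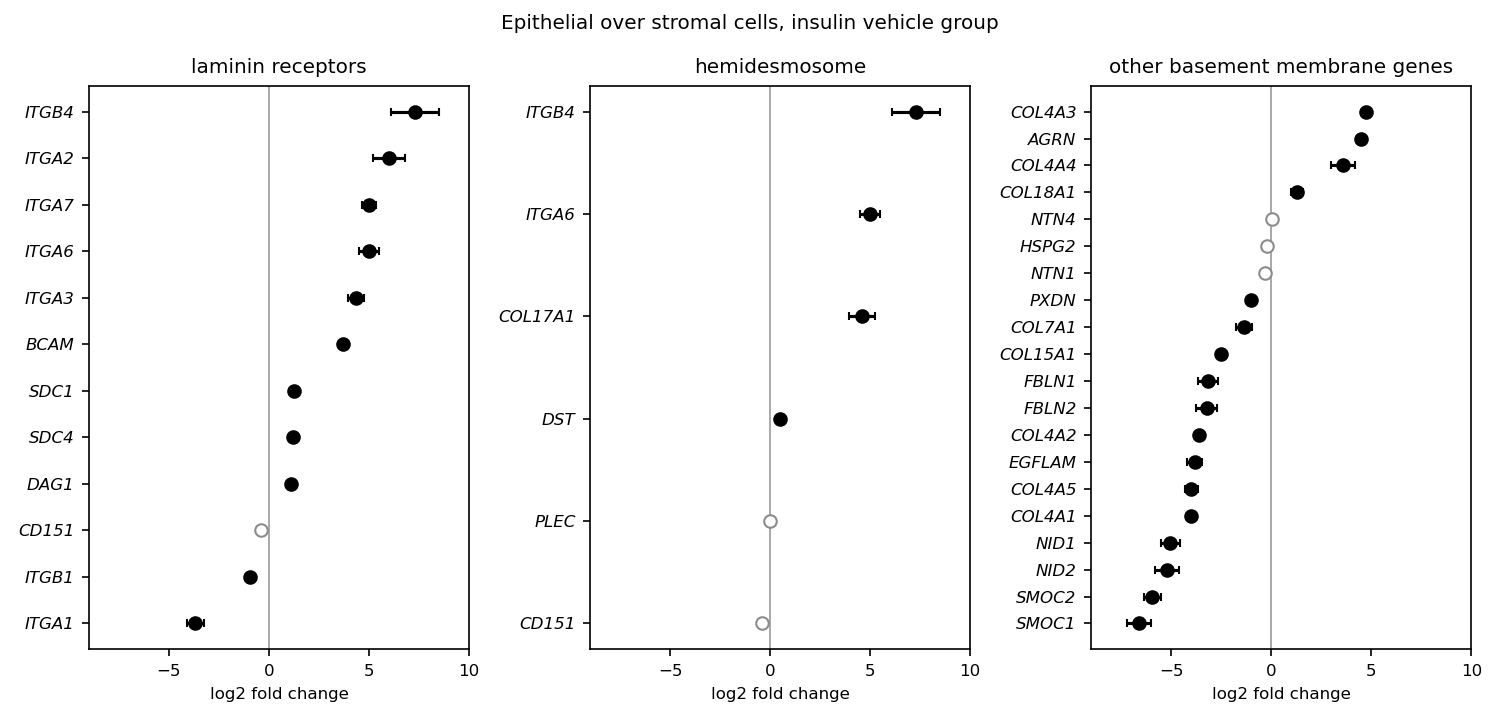
Log2 fold change of epithelial over stromal cells at insulin vehicle for laminin receptors, hemidesmosome genes and other basement membrane genes, with bars of 1 standard error. Filled black points were called and open grey points were not. Receptors lie mostly right of 0, from -3.69 (ITGA1) to 7.29 (ITGB4), and the other basement membrane genes mostly left of 0, down to -6.60 (SMOC1).

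Of 7 tested enzymes that cut laminins or activate others that do, 2 were called higher in epithelial and 2 in stromal cells at vehicle. Over all genes the shares were 27.8% and 27.3%, so these counts were near those of all genes. The serine proteases HPN (6.95, adjusted P = 0.00216) and PLAU (4.16, adjusted P = 0.00302) were higher in epithelial cells, and the matrix metalloproteinases MMP2 (-4.47, adjusted P = 0.00771) and MMP14 (-1.37) were higher in stromal cells. MMP2 was itself on the list of stromal markers. Of 12 genes that glycosylate dystroglycan, 1 was higher in epithelial cells and 8 in stromal cells, against 27.8% and 27.3% of all genes. The median of the 12 was -0.74. LARGE2, which extends the laminin-binding sugar chain, had 5.56 (adjusted P = 0.0016), and POMGNT2, an enzyme of the same pathway, had -1.78 (adjusted P = 0.00177). Between the glucose or insulin concentrations within a cell type, no receptor, hemidesmosome or other basement membrane gene of these lists was called. In the test of the difference between cell types, COL17A1 was called at 1 ng/mL (3.19, adjusted P = 0.0151), a comparison in which 20 of the 30 epithelial markers were called as well.

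The genes most like each chain were sought among 10107 named genes with a mean of at least 5 CPM, by the Pearson correlation of log2(CPM + 1) over the 30 libraries after centring on each cell type and experiment. This is a description, since the libraries share replicates and the spread of the epithelial markers. LAMB3 was most like ITGB4 (0.989), the hemidesmosomal integrin beta chain, and WFDC2 (0.983), a secreted epithelial protein. LAMA3 was most like F2RL1 (0.949), a protease-activated receptor, and the epithelial cadherin CDH1 (0.947). The correlation was 0.933 between LAMA3 and LAMB3. LAMA4 was most like the secreted BMP antagonist GREM1 (0.901) and GREB1L (0.838), LAMA5 like LZTS3 (0.936) and BIN1 (0.935), and LAMB1 like the RNA-editing enzyme ADARB1 (0.822) and FAM171A1 (0.816). LAMB2 was most like KIAA2013 (0.935) and UBAC1 (0.93), and LAMC1 like the translation factor EIF4G1 (0.887) and RRP7A (0.874). Between the chains themselves, LAMA5 was at -0.659 with LAMB1 and -0.645 with LAMA4, and LAMA4 was at 0.644 with LAMB1. LAMA2 was below the limit of 5 CPM and was not compared.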

How the data were processed

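RNA sequencing libraries from 30 samples were read as stranded single-end reads of 75 bp, per the labels. The authors trimmed and filtered the reads and counted them per gene with featureCounts against Ensembl release 96, and they deposited raw counts for 27607 genes, 1 table for each experiment. The aligner's build and whether counting used strand are not given in the sources used here, so reads of overlapping or antisense genes cannot be told apart. Gene symbols and types came from the deposited DESeq2 comparison tables, which paired them with 17468 gene identifiers. The fold changes and P values of those tables were not used.

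Counts were fitted with edgeR 4.0.16 (TMM, filterByExpr, quasi-likelihood test) in R 4.3.3, separately for each comparison, with the replicate number as a block, as in the study's paired design. P values were adjusted by Benjamini-Hochberg over all genes tested. A gene was called at an adjusted P under 0.05 and an absolute log2 fold change above 0.1. The difference between cell types was tested as an interaction. CPM is the count scaled to the library total, and a pseudocount of 1 CPM was used for logarithms in the plots and correlations. Totals ran from 8826470 to 16647701 counts. The fits were tested on simulated data. Samples of the same number deviated together in the comparisons of concentrations (correlations of 0.208 to 0.897 over 24 pairs) and less so between cell types (0.0378 to 0.537 over 15 pairs).

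Alternatives were a fit without the block, DESeq2 1.42.0, RLE size factors, every gene with at least 1 count, each replicate left out and all libraries of an experiment in 1 fit, and, chosen after seeing the data, adjustment over protein-coding genes. The members, gene lists and tests were chosen with earlier results of these data known. Fold changes are given for every laminin gene between cell types and, between concentrations, for those with an unadjusted P under 0.05. Of each list the 3 called genes with the largest change at vehicle are named, with ITGA6, ITGB4, DAG1, BCAM and NID1, apart from items that are not reported here. No sequences or coordinates were used here.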

Additional observations from a re-analysis of the deposited data

Results flagged for a closer look

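In 3 cases every epithelial pair moved one way and every stromal pair the other, and the difference itself was tested in 1 model over both cell types. LAMA4 was higher at 50 mM than at 5 mM of glucose in 3 of 3 epithelial pairs and lower in 3 of 3 stromal pairs, with an epithelial minus stromal difference of 0.74 on the log2 scale (adjusted P = 0.654 by edgeR). At 10 ng/mL of insulin against vehicle, LAMA4 was lower in 3 of 3 epithelial and higher in 3 of 3 stromal pairs, with a difference of -0.24 (adjusted P = 1.0 by edgeR). LAMB1 had the same pattern there, with a difference of -0.14 (adjusted P = 1.0 by edgeR). None of the 3 differences passed the test after adjustment. The median log2 fold change of the stromal markers had the same directions, at 0.69 in epithelial and -0.51 in stromal cells with glucose. At 10 ng/mL of insulin against vehicle it was -0.09 and 0.08. The part of the stromal markers in the 3 cases was not tested.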

How the results depend on the processing

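Of 476 recomputed fold changes, covering 58 values, 420 kept their direction and their side of the threshold, 24 passed it newly, 26 no longer passed it and 6 changed sign. The 58 are the values between cell types and, for concentrations and differences, only those with an unadjusted P under 0.05 from edgeR. Outside the 58, values changed sign as well when 1 replicate was left out. Between 10 ng/mL and vehicle in stromal cells, LAMA3 ran from -0.69 to 2.84 and LAMB3 from -1.84 to 4.23. Among the 58 values, the sign changed for LAMA3 (0.18) and LAMB3 (0.70) between 1 ng/mL and vehicle in stromal cells without replicate 2, for LAMB2 between cell types at 5 mM of glucose without replicate 1 (0.11) or replicate 3 (0.11), and for the difference between cell types at 1 ng/mL for LAMA3 (-0.15) and LAMB3 (-0.67) without replicate 2. RLE size factors and adjustment over protein-coding genes changed none of the calls on the 58 values, and the causes of the other changes were not tested.

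Leaving out 1 replicate gave -1.70 to 0.18 for LAMA3 and -3.17 to 0.70 for LAMB3 between 1 ng/mL and vehicle in stromal cells, -0.72 to 0.11 for LAMB2 between cell types at 5 mM, and -0.15 to 1.70 for LAMA3 and -0.67 to 3.32 for LAMB3 in the difference at 1 ng/mL.

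The number of laminin genes called moved as follows. Without the replicate block it fell from 3 to 1 between cell types at 50 mM. The count over all genes fell there from 2397 to 1088. The laminin count also fell from 8 to 7 at vehicle (LAMA2, adjusted P = 0.051 by edgeR) and from 5 to 4 at 5 mM. Over all genes it went from 7392 to 7541 and from 2944 to 3028. DESeq2 and the fit with every gene each called 6 laminin genes at 5 mM, against 4065 and 3280 of 20298 over all genes. With 1 replicate left out, 4 to 6 laminin genes were called at 5 mM, against 2262 to 3362 over all genes. At vehicle 7 were called with every gene (LAMB2, adjusted P = 0.0562 by edgeR), against 7450 of 19508 over all genes. DESeq2 called 6 between cell types at 50 mM, 1 for glucose in stromal cells and 1 for the difference in the glucose effect. Its counts over all genes were 3599 of 20271, 199 of 20051 and 243 of 21150. With every gene of at least 1 count, stromal cells had 2 called between 1 ng/mL and vehicle and 2 between 10 and 1 ng/mL. For the difference at 1 ng/mL 2 were called as well. Over all genes these fits called 156 of 18890, 165 of 18937 and 294 of 20366. Leaving out 1 replicate gave 0 to 5 between cell types at 50 mM, 4 to 7 at vehicle and 3 to 6 at 10 ng/mL. Over all genes it gave 0 to 3897, 5195 to 5788 and 4940 to 6124. In stromal cells it gave 0 to 1 laminin genes for glucose and 0 to 2 between 1 ng/mL and vehicle. Between 10 ng/mL and vehicle it gave 0 to 2, and between 10 and 1 ng/mL 1 to 2. The counts over all genes there were 0 to 50, 7 to 103, 0 to 79 and 24 to 74. The differences between cell types had 0 to 1 called for glucose, 0 to 1 at 1 ng/mL and 0 to 2 at 10 ng/mL. Over all genes these were 0 to 307, 3 to 158 and 0 to 170. With 2 libraries a group these fits have few degrees of freedom. Between cell types, the all-gene count went from 7392 to 5195 (without replicate 1) or 7541 (no replicate block) at vehicle. At 5 mM it went from 2944 to 2262 (without replicate 3) or 4065 (DESeq2). At 10 ng/mL it went from 7224 to 4940 (without replicate 2) or 7605 (no replicate block). Over all genes, the count went from 2397 to 0 (without replicate 1) or 3897 (without replicate 3) between cell types at 50 mM, from 16 to 0 (no replicate block) or 78 between 10 ng/mL and vehicle in epithelial cells, from 4 to 0 (no replicate block) or 165 (every gene) between 10 and 1 ng/mL and from 2 to 0 or 156 (every gene) between 1 ng/mL and vehicle in stromal cells, and from 92 to 0 (no replicate block) or 294 for the difference at 1 ng/mL. It went from 0 to 221 for glucose in epithelial and 199 (DESeq2) in stromal cells, to 33 (1 ng/mL against vehicle) and 32 (10 against 1 ng/mL) in epithelial cells, to 79 between 10 ng/mL and vehicle in stromal cells, and to 307 and 170 for the differences with glucose and at 10 ng/mL.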
